A study of Rattus norvegicus with 8 samples.

Results

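The hypertrophic zone of the rat femur growth plate was compared with the perichondral, reserve and proliferative zones of the same plate. It is represented by 2 of the series' 8 arrays, and its mean was set against the mean of the 3 other zone means. A gene was counted as standing apart when both hypertrophic values lay above, or both lay below, all 6 values of the other zones. Of 14217 genes measured, 612 (4.3%) lay above and 645 (4.54%) below by that rule. Over all 31042 probe sets, with or without a gene name, 1450 (4.67%) lay above and 1221 (3.93%) below.

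In the growth plate, chondrocytes of the reserve zone feed columns of dividing cells. Their descendants leave the cell cycle, swell, and replace the matrix of type II collagen and proteoglycans with one holding type X collagen. Hypertrophic cells mineralise the matrix around them, and the collagenase Mmp13 with the gelatinase Mmp9 takes part in its removal where vessels and bone invade.

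RNA came from femurs of Rattus norvegicus, with no strain or genotype given in the labels. Every zone (hypertrophic, perichondral, reserve and proliferative) had 1 array at 42 days and 1 at 46 days of age, each made from RNA pooled from 3 rats. Total RNA was extracted with RNeasy, amplified by the Ovation procedure and carried a biotin label. How the zones were cut apart, and whether pools of different zones share rats, are not given in the sources used here. The p-values therefore rest in part on how far 2 pools of unlike age vary within a zone. In limma that spread is drawn toward the spread of other probe sets of like signal level. These weigh more, with 12.58 prior against 4 residual degrees of freedom, so an SE can differ from the gene's own spread.

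Levels are given as normalized log2(intensity + 16), always for the 42-day array and then the 46-day array of a zone, and SDs are over n = 2 arrays. Genes typical of other organs served as a yardstick for background: 0.95 of the values of 37 such genes lay below 9.64, called the other-organ level here. The 46-day hypertrophic array correlated more closely with the 46-day proliferative array (r = 0.735 across the 6209 brightest probe sets) than with the 42-day array of its own zone (r = 0.531). The 42-day hypertrophic array, too, correlated more closely with each array of the other zones (r from 0.546 to 0.683) than with the 46-day one. The 2 arrays of each other zone correlated with r from 0.615 to 0.769, so the hypertrophic pair was the least alike. These correlations run across probe sets, which are not independent replicates. As a sign of RNA quality, Gapdh control probes at the 3' end were brighter than those at the 5' end by a ratio of 4.3 and 3.63 in hypertrophic arrays and between 3.78 and 8.15 in the others (exact permutation test, two-sided, p = 0.286). For beta-actin the ratio was 1.71 and 4.59 in hypertrophic arrays and between 0.56 and 4.65 in the others (same permutation test, p = 0.786). With so few arrays this test could not give a p below 0.05 whatever the ratios were. No conclusion on RNA quality is therefore drawn from either p. The 46-day proliferative array had an actin ratio of 4.56, close to that of the 46-day hypertrophic array. The part of RNA quality in the differences below was not tested.

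Single-gene tests found few differences against the mean of the other zones. With limma and Benjamini-Hochberg adjustment over 31042 probe sets, 1 was higher (0.00322%) and 11 were lower (0.0354%) in hypertrophic arrays at an adjusted p below 0.05, while 690 (2.22%) were higher and 1380 (4.45%) lower at an unadjusted p under 0.05. With age as a replicate block the counts were 5 higher (0.0161%) and 68 lower (0.219%), which held all 12. With no trend of the variance on signal level in the limma fit, 0 passed in either direction and 2075 had an unadjusted p under 0.05. Without both 46-day arrays that resembled each other, an alternative chosen after seeing the data, 3 were higher and 14 lower, and 5 of the 12 were still called.

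Col10a1, which encodes the type X collagen that marks hypertrophic cartilage, was the 1 gene that rose. Its levels were 16.93 and 15.26 in hypertrophic arrays, against 13.66 and 13.78 in perichondral, 11.78 and 10.88 in reserve and 12.62 and 10.94 in proliferative arrays. Both hypertrophic arrays lay above every other array, with a gap of 1.49 to the nearest, which was perichondral. The mean was 16.1 ± 1.18 in hypertrophic, 13.72 ± 0.08 in perichondral, 11.33 ± 0.63 in reserve and 11.78 ± 1.19 in proliferative arrays (SD, n = 2 each). The difference was 3.82 (SE 0.58), or 14.1-fold, with an adjusted p of 0.0268 by limma and of 0.000215 with the age block. Leaving out each array in turn gave 2.99 to 4.65, and the call held in 2 of 8 such fits (adjusted p from 0.0265 to 0.225). It was lost without the 42-day hypertrophic array, without the 46-day proliferative array, and without any of the 4 perichondral and reserve arrays. Over these and 9 other settings it held in 6 of 17 fits (adjusted p from 0.000215 to 0.501), and the difference stayed between 2.99 and 4.65. Zone by zone, the difference was 4.77 against reserve (adjusted p = 0.0233), 4.32 against proliferative (adjusted p = 0.0766) and 2.38 against perichondral arrays (adjusted p = 0.643).

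**Figure D1:**
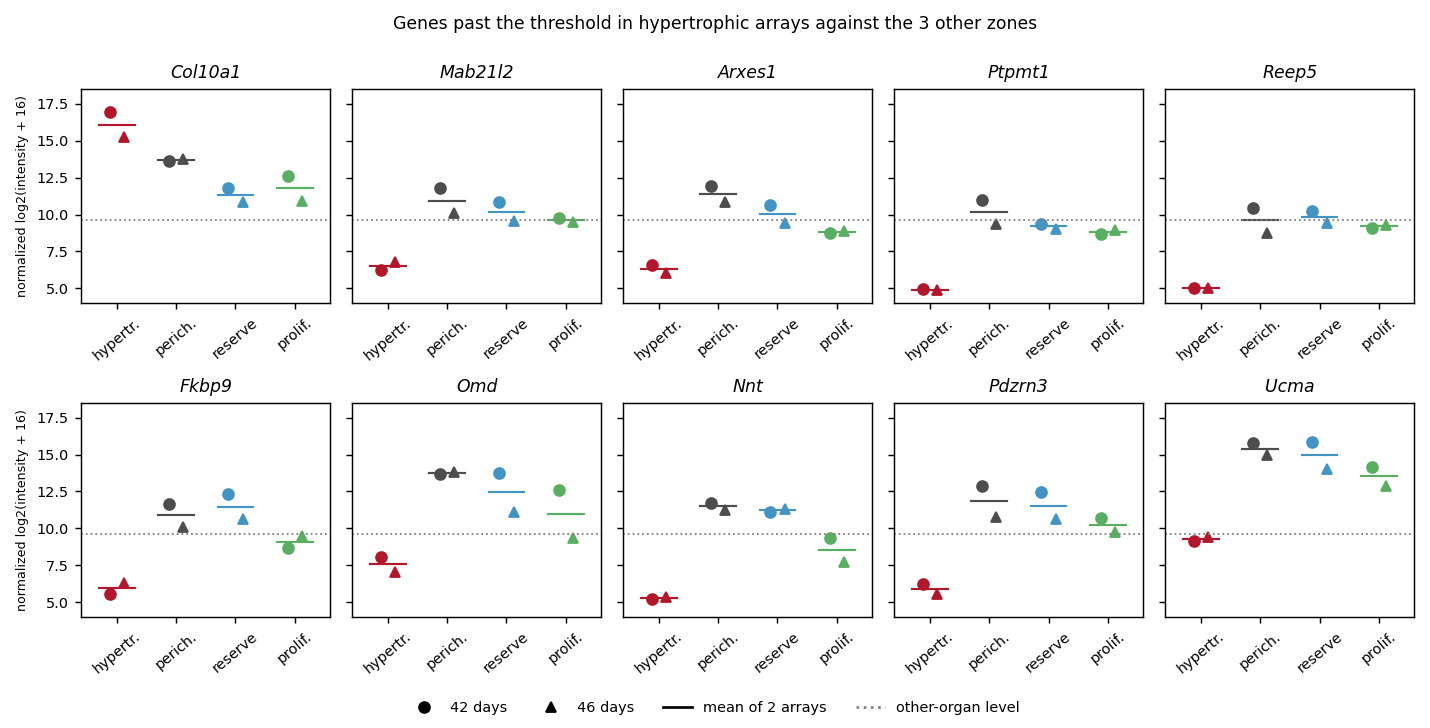
Normalized log2(intensity + 16) by zone, hypertrophic first, for the 10 named genes past the limma threshold, with circles at 42 days, triangles at 46 days, a bar at the mean of 2 arrays and a dotted line at the other-organ level of 9.64. Col10a1 lies above all 6 other arrays, and the other 9 genes lie below all 6 in both hypertrophic arrays, Reep5 by the dimmer of its 2 probe sets.

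The proximal promoters of Col10a1, of the collagenase gene Mmp13 and of Ucma, the gene with the smallest adjusted p among those that fell, are shown because Col10a1 and Ucma lead the calls in each direction and Mmp13 was higher with the age block. Each sequence holds the 250 bases before the annotated start in RefSeq's GRCr8 assembly, written 5′ to 3′ on the strand of the gene. Col10a1 lies on the plus strand (chr20:39737286-39737535), Mmp13 on the plus strand (chr8:12782579-12782828) and Ucma on the minus strand (chr17:78212997-78213246). Capitals mark matches, on either strand, to the RUNX core TGTGGT, the AP-1 site TGANTCA, the SOX core ACAATG or the TATA box TATAAA, none of which overlap here.
Col10a1: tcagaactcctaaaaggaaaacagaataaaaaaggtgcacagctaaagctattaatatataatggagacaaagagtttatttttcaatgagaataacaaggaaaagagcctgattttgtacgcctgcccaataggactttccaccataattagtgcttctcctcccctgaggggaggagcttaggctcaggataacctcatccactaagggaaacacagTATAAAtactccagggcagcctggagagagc
Mmp13: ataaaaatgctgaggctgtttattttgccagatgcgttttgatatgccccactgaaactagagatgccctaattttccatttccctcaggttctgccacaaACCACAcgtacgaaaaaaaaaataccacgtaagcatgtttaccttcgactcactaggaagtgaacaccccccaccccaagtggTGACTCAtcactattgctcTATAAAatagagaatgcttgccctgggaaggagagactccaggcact
Ucma: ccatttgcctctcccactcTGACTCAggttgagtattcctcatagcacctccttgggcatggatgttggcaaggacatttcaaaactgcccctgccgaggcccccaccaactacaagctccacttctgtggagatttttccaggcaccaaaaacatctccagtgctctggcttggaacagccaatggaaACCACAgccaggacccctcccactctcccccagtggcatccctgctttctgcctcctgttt
In the Col10a1 window the only match was a TATA box, 31 to 26 bases before the start. The Mmp13 window held a RUNX core as its reverse complement (149 to 144 bases before the start), an AP-1 site (66 to 60) and a TATA box (47 to 42). The Ucma window held an AP-1 site (231 to 225) and a RUNX core as its reverse complement (61 to 56). Among all 33469 promoter windows of this length, 14.5% held the RUNX core, 6.34% the AP-1 site, 11.1% the SOX core and 12.9% the TATA box. A match describes these letters and was not tested as a binding site.

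Apart from Col10a1, the genes of late maturation did not separate the hypertrophic zone from all others. Of 7 measured defining markers (Col10a1, Ihh, Mmp13, Spp1, Ibsp, Alpl and Pth1r), 1 lay above all 6 other arrays, and for Runx2 no probe set carried it as the only symbol. Of 23 measured genes of the wider hypertrophic chondrocyte list, 1 (4.35%) lay above, Col10a1, and 1 (4.35%) below, Ccn2. Over all genes 4.3% lay above and 4.54% below. By sign 15 of the 23 were higher (49.9% of all genes were), with a median difference of 0.33 against 0.00 over all 14217 genes, and that median was 0.49 at 42 days and -0.07 at 46 days.

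Mmp13, the collagenase of hypertrophic cartilage, had levels of 14.73 and 14.09 in hypertrophic arrays, against 12.08 and 9.77 in perichondral, 14.75 and 14.73 in reserve and 8.65 and 8.57 in proliferative arrays. The hypertrophic and reserve arrays were both high, the reserve ones slightly higher, and the proliferative arrays lay below the other-organ level. The difference from the mean of the other zones was 2.98 (SE 0.54) with an adjusted p of 0.0781 by limma, and of 0.00524 with the age block. It was 5.80 against proliferative (adjusted p = 0.00411), 3.48 against perichondral (adjusted p = 0.126) and -0.33 against reserve arrays (adjusted p = 0.932). Without the 42-day perichondral array the adjusted p was 0.0409.

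Mmp9, a gelatinase of osteoclasts and of the vascular front, stood at 11.79 and 12.48 in hypertrophic arrays, against 9.04 and 5.36 in perichondral, 13.30 and 12.09 in reserve and 5.48 and 5.70 in proliferative arrays. It too was high in hypertrophic and reserve arrays, which overlapped. The difference was 3.64 (SE 0.76; adjusted p = 0.141 by limma, 0.0282 with the age block), and without the 42-day perichondral array the adjusted p was 0.0406. A second, dimmer Mmp9 probe set differed by 0.68. With the block, the 5 probe sets higher in hypertrophic arrays were those of Col10a1, Mmp13 and Mmp9 and 2 without a gene symbol, 1376435_at and 1390992_at, which were picked after their values were known.

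Ibsp and Dmp1, genes of mineralised matrix, differed between the 2 hypertrophic arrays. Of the 20 measured mineralisation genes, 15 were lower in the 46-day than in the 42-day hypertrophic array, with a median change of -0.88, which rests on 1 array at each age. The fall was not particular to them. Of 27 cartilage matrix genes 21 were lower (median -1.19), and of 24 leukocyte and marrow genes 18 (median -1.03). The medians of the endothelial, skeletal muscle, hedgehog, Wnt, growth hormone and yardstick lists rose instead. Ibsp stood at 15.66 and 12.47 in hypertrophic arrays, against 12.60 and 13.42 in perichondral, 14.52 and 14.33 in reserve and 10.42 and 6.05 in proliferative arrays. The 42-day hypertrophic array was the highest of the 8 for Ibsp, while the 46-day one lay below 4 of the other arrays. Dmp1, a phosphoprotein of osteocytes, showed the same split, at 13.58 and 9.98 in hypertrophic arrays, against 7.80 and 10.22 in perichondral, 12.01 and 13.76 in reserve and 8.89 and 8.04 in proliferative arrays. The differences were 2.18 (SE 0.89; adjusted p = 0.692) for Ibsp and 1.66 (SE 0.80; adjusted p = 0.76) for Dmp1 by limma.

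Ihh, the hedgehog signal of prehypertrophic cells, was dim throughout, with 9.03 and 6.98 in hypertrophic arrays, against 5.18 to 5.99 in perichondral and reserve arrays and 7.34 and 5.14 in proliferative arrays. All 8 values lay below the other-organ level. The difference of Ihh was 2.18 (SE 0.95; adjusted p = 0.717). Pth1r, the receptor of parathyroid hormone-related peptide, had 9.58 and 9.0 in hypertrophic arrays and 8.65 to 9.61 elsewhere, with a difference of 0.07 (SE 0.57; adjusted p = 0.985).

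The remaining maturation genes overlapped between zones. The phosphatase Alpl, which frees phosphate for mineral, had 9.39 and 9.65 in hypertrophic arrays and 8.61 to 9.77 elsewhere, a difference of 0.42 (SE 0.58). Spp1, osteopontin, had 9.47 and 8.57 in hypertrophic arrays and 8.47 to 9.81 elsewhere, a difference of 0.04 (SE 0.60). The transcription factor Mef2c had 14.14 and 12.54 in hypertrophic arrays and 12.20 to 13.53 elsewhere, a difference of 0.63 (SE 0.50). The differences of the channel protein Panx3 (0.62), the angiogenic factor Vegfa (-0.51) and the phosphatase Phospho1 (-0.58) also missed the threshold, and adjusted p ranged from 0.83 to 0.995 over these 6 genes. None of the 20 measured mineralisation genes lay above or below all 6 other arrays, although the block called 1 of them, Mgp, lower.

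**Figure D2:**
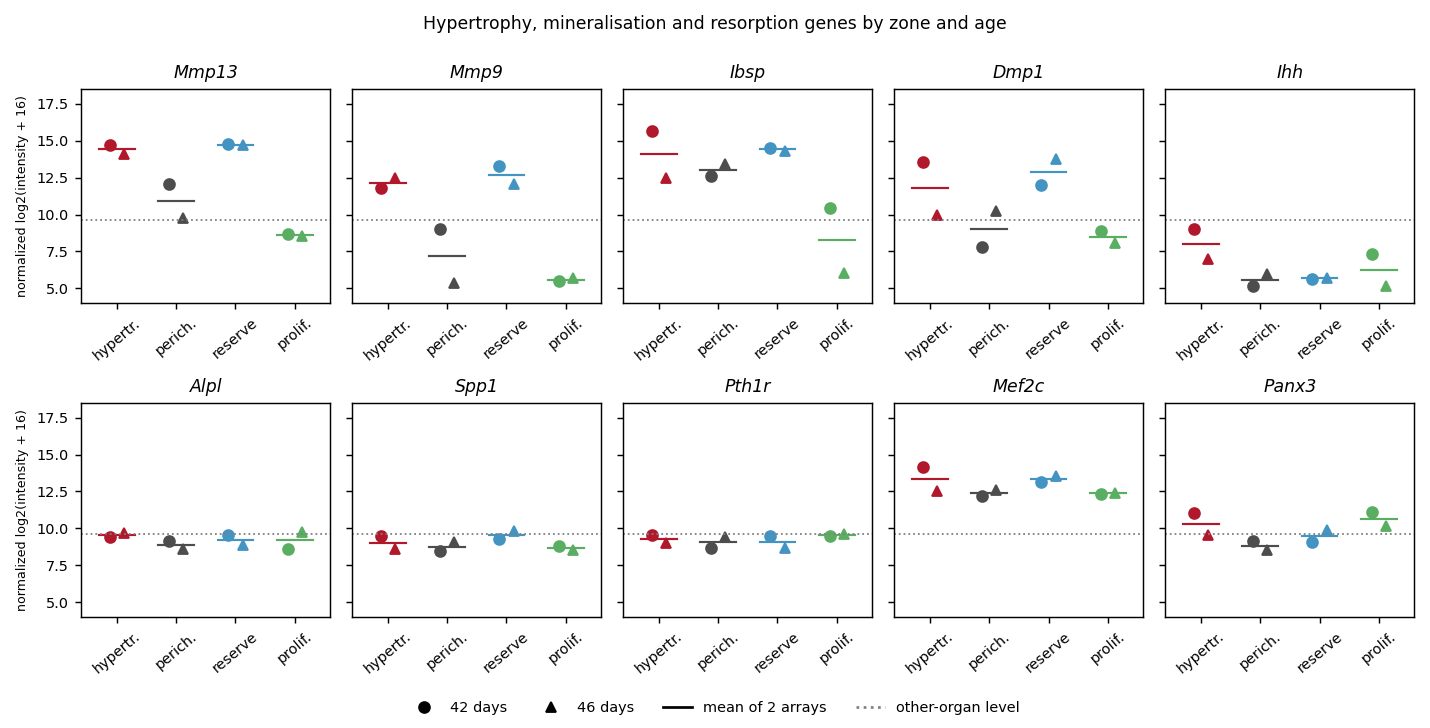
Normalized log2(intensity + 16) by zone, hypertrophic first, for 10 genes of hypertrophy, mineralisation and resorption, with circles at 42 days, triangles at 46 days, a bar at the mean of 2 arrays and a dotted line at the other-organ level of 9.64. Mmp13, Mmp9, Ibsp and Dmp1 overlap between hypertrophic and reserve arrays, and Ihh lies below the dotted line in all 8.

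Ucma, which encodes a secreted protein of cartilage rich in gamma-carboxyglutamate, fell to 9.16 and 9.39 in hypertrophic arrays, against 15.80 and 14.99 in perichondral, 15.86 and 14.02 in reserve and 14.19 and 12.90 in proliferative arrays. The mean was 9.27 ± 0.16 in hypertrophic, 15.39 ± 0.57 in perichondral, 14.94 ± 1.30 in reserve and 13.54 ± 0.91 in proliferative arrays (SD, n = 2 each). The lowest other value exceeded the higher hypertrophic one by 3.51. The difference of -5.35 (SE 0.57) amounts to 40.9-fold (adjusted p = 0.00165 by limma), and to at least 31.6-fold when hypertrophic values are raised to the other-organ level. The call held with each of the 8 arrays left out in turn, with differences from -5.66 to -5.05, but not with no variance trend (adjusted p = 0.353) or against proliferative arrays alone (-4.27, adjusted p = 0.0766).

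Nnt, the mitochondrial transhydrogenase that makes NADPH, fell to 5.21 and 5.35 in hypertrophic arrays, against 11.72 and 11.26 in perichondral, 11.12 and 11.34 in reserve and 9.37 and 7.69 in proliferative arrays. Its hypertrophic values lay close to the lower end of the array's range. The difference was -5.14 (SE 0.61; adjusted p = 0.00232 by limma), and at least 1.71-fold when hypertrophic values are raised to the other-organ level. Pdzrn3, a ubiquitin ligase, had 6.24 and 5.55 in hypertrophic arrays, against 9.76 to 12.89 in the other 6, with a difference of -5.30 (SE 0.64; adjusted p = 0.00232). Both calls held with each array left out, but against proliferative arrays alone the adjusted p was 0.565 for Nnt and 0.162 for Pdzrn3. Without both 46-day arrays that for Pdzrn3 was 0.0689.

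Omd, osteomodulin, a leucine-rich proteoglycan of bone and cartilage, fell to 8.08 and 7.04 in hypertrophic arrays, against 13.69 and 13.79 in perichondral, 13.78 and 11.12 in reserve and 12.59 and 9.37 in proliferative arrays. Its difference was -4.83 (SE 0.74; adjusted p = 0.0268), the call holding in 4 of 8 fits with an array left out (adjusted p from 0.00899 to 0.225). Fkbp9, a prolyl isomerase of the endoplasmic reticulum, had 5.54 and 6.32 in hypertrophic arrays and 8.69 to 12.31 elsewhere, a difference of -4.54 (SE 0.64; adjusted p = 0.0123) that was called in 6 of 8. It was lost without the 42-day perichondral or the 42-day reserve array, and that of Omd without either perichondral, the 46-day hypertrophic or the 42-day reserve array.

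The calls of the other named genes with a probe set that fell held in fewer fits with an array left out. Their hypertrophic values lay below the other-organ level, as did those of Ucma, Nnt, Pdzrn3, Omd and Fkbp9. With hypertrophic values raised to that level, the fall was at least 6.73-fold for Omd, 2.94-fold for Pdzrn3 and 1.78-fold for Fkbp9. It was at least 1.52-fold for Mab21l2 and 1.36-fold for Arxes1. Arxes1 differed by -3.75 and Mab21l2 by -3.72, while a second, dimmer probe set of Mab21l2 gave -0.53. The mitochondrial phosphatase Ptpmt1 (-4.50) and Reep5, which shapes the endoplasmic reticulum, are named after their values were seen. Reep5 was called through the dimmer of its 2 probe sets (-4.53). The brighter one had 10.52 and 9.72 in hypertrophic arrays and 9.45 to 11.25 elsewhere, a difference of -0.23 (adjusted p = 0.937 by limma), so the 2 probe sets disagree. The other-zone means of the called probe sets of Ptpmt1 (9.41) and Reep5 (9.56) lay below the other-organ level of 9.64. Adjusted p of these 4 calls ran from 0.0375 to 0.0407 by limma, and each was called in at most 1 of 8 fits with an array left out. Armcx2, among the 12 genes with the widest gap on the lower side, had 5.56 and 4.79 in hypertrophic arrays and 7.66 to 11.95 elsewhere, a difference of -4.66 (SE 0.82; adjusted p = 0.0668, block 0.00613). The 2 other probe sets that fell, 1372647_at and 1382469_at, carry no gene symbol, are named after their values were seen, and differed by -5.08 and -3.90.

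Cartilage matrix genes stood lower as a group in the hypertrophic zone. All 27 measured members were lower by sign, against 50.1% of all genes and 57.6% of the 2515 genes whose mean exceeded the other-organ level. Of the 27, 11 (40.7%) lay below all 6 other arrays and 0 above, where the shares were 4.54% over all genes and 6.44% over those 2515. The median difference was -1.47, against 0.00 over all genes and -0.15 over the 2515. By limma 2 members passed, Ucma and Omd, and with the age block 10 did. The median was -1.43 within the 42-day arrays and -2.05 within the 46-day arrays, and it ran from -2.17 without the 42-day hypertrophic array to -0.93 without the 46-day one. RNA from fewer chondrocytes and less of these transcripts in each cell cannot be told apart in such bulk samples.

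Besides Ucma and Omd, several leucine-rich and other matrix proteins lay below the other zones. Fmod, fibromodulin, which binds collagen fibrils, had 8.55 and 6.24 in hypertrophic arrays, against 13.38 and 11.28 in perichondral, 14.13 and 11.86 in reserve and 10.75 and 8.57 in proliferative arrays. Its hypertrophic values lay below all others by 0.02, and the difference was -4.27 (SE 0.77; adjusted p = 0.071 by limma, 5.56e-05 with the block). Bgn, biglycan, had 6.45 and 7.56 in hypertrophic arrays and 9.34 to 12.79 elsewhere, with a difference of -3.68 (adjusted p = 0.107, block 0.0135). Chad, chondroadherin, differed by -3.74 (adjusted p = 0.0931, block 0.0142) and Prelp by -3.95 (adjusted p = 0.197, block 0.0649). Scrg1, a gene induced during cartilage formation, had 8.89 and 9.46 in hypertrophic arrays and 11.16 to 12.30 elsewhere, with a difference of -2.46 (adjusted p = 0.071, block 0.0114). Matn2, a matrilin, had 10.01 and 8.19 in hypertrophic arrays and 10.65 to 13.46 elsewhere, with a difference of -2.88 (adjusted p = 0.222, block 0.00722). Mgp, matrix Gla protein (-3.72; adjusted p = 0.308, block 0.00118), and Ogn, osteoglycin (-3.14; adjusted p = 0.0931, block 0.00309), overlapped with the 46-day proliferative array.

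The collagens of hyaline cartilage gave no call without the age block. Col2a1, the type II collagen, had 17.13 and 15.86 in hypertrophic arrays and 17.21 to 17.80 elsewhere, a difference of -1.0 (SE 1.02; adjusted p = 0.873). Both values lay below all 6 others, by 0.08 at the nearest, close to the upper end of the array's range. A second Col2a1 probe set also lay below all 6 (-1.32), while the dimmest overlapped (-0.49). Col9a1, of type IX collagen, had 12.84 and 10.02 in hypertrophic arrays and 13.85 to 15.97 elsewhere, a difference of -3.40 (SE 0.74; adjusted p = 0.164, block 0.000872).

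Aggrecan and the proteins that bind it or its network gave no call either. Hapln1, the link protein of aggrecan, had 15.21 and 14.55 in hypertrophic arrays and 15.71 to 16.60 elsewhere, a difference of -1.26 (SE 0.74). Acan, aggrecan, had 12.19 and 10.66 in hypertrophic arrays and 12.03 to 14.12 elsewhere, so that the groups overlapped. Its difference was -1.37 (SE 0.58; adjusted p = 0.701), and its second probe set gave -0.43. Comp (-1.05) and Matn1 (-0.88) overlapped as well. Lum, lumican, differed by -1.77 on average, but its 42-day hypertrophic array (13.70) was the highest of all 8 and its 46-day array (7.12) the lowest.

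**Figure D3:**
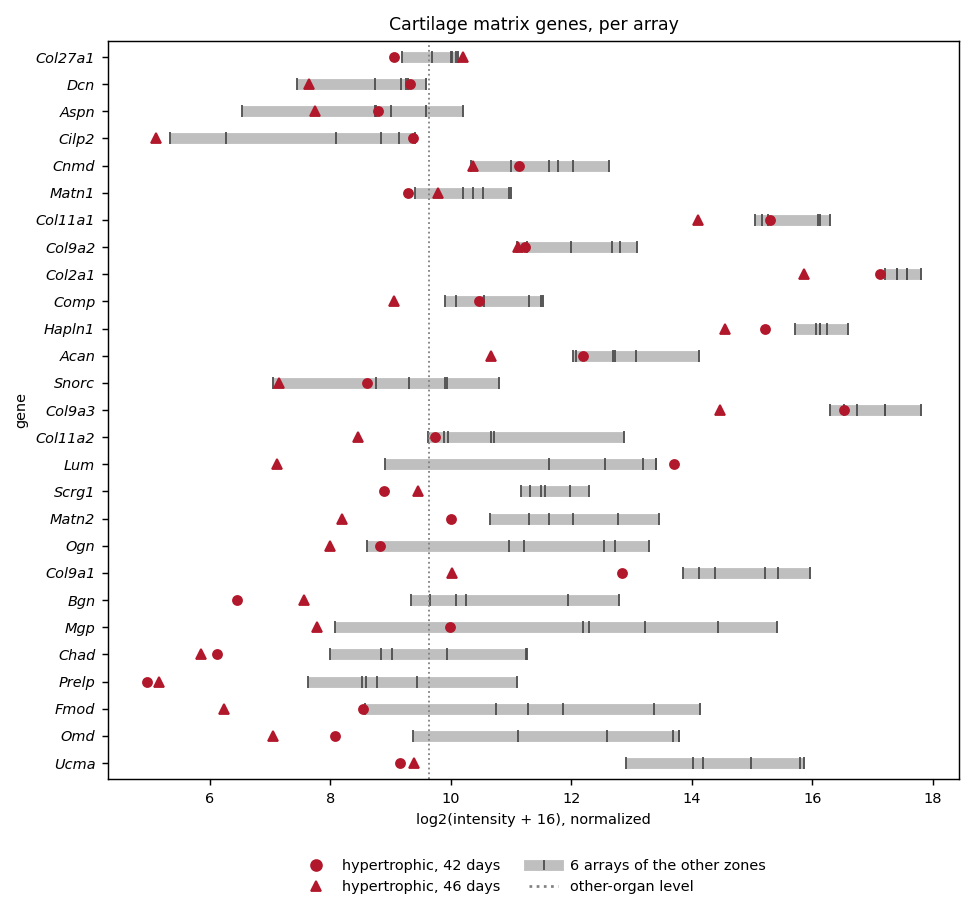
Normalized log2(intensity + 16) of the 27 measured cartilage matrix genes, ordered by their difference, with red circles for the 42-day and red triangles for the 46-day hypertrophic array, grey bars with ticks for the 6 arrays of the other zones and a dotted line at the other-organ level of 9.64. In 11 genes, from Col2a1 to Ucma, both red points lie left of the grey bar.

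Genes of resting chondrocytes lay lower as well. Of 19 measured, 7 (36.8%, against 4.54% of all genes) lay below all 6 other arrays and 0 above, 16 were lower by sign (50.1% of all genes were), and the median difference was -1.29, against 0.00 over all genes. By limma 1 of them passed, Ucma, which the cartilage matrix list also holds, and with the block 3 did. H19, an imprinted non-coding RNA, had 8.66 and 8.11 in hypertrophic arrays, against 15.49 and 12.94 in perichondral, 15.91 and 10.97 in reserve and 11.29 and 10.45 in proliferative arrays. Its difference was -4.46 (SE 0.90; adjusted p = 0.126, block 0.00175). Tgfbi, a matrix protein induced by TGF-beta, had 9.23 and 8.12 in hypertrophic arrays and 10.09 to 12.88 elsewhere, a difference of -2.61 (adjusted p = 0.306, block 0.0166). The Wnt antagonist Sfrp1 (-1.48) and Tnfrsf11b, the osteoclast inhibitor osteoprotegerin (-1.29), also lay below all 6. Without the 42-day reserve array the median of the list was -0.77. Zone by zone, with all arrays, it was -1.57 against perichondral, -1.21 against reserve and -0.89 against proliferative arrays. The fall was thus not largest against the reserve zone.

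Genes of the endoplasmic reticulum, a list that mixes folding, collagen modification and export with the general stress response, lay lower in part. Of 36 measured, 7 (19.4%) lay below all 6 other arrays and 1 (2.78%), the disulfide isomerase Pdia6, above, against 4.54% and 4.3% of all genes, and 6.44% and 3.82% of the 2515 brighter ones. By sign 26 were lower, against 50.1% of all genes and 57.6% of the brighter ones, and the median difference was -0.42. By limma 0 passed, 2 with the age block, and 9 had an unadjusted p under 0.05 on the lower side, where 4.45% of all probe sets did. The median ran from -0.91 without the 42-day hypertrophic array to -0.23 without the 46-day one.

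Within that group, the collagen chaperone Serpinh1 had 4.52 and 4.76 in hypertrophic arrays and 6.99 to 11.87 elsewhere. Both values were near the lower end of the array's range, and the difference was -5.01 (SE 0.94; adjusted p = 0.0899, block 0.0102), while a second probe set gave -1.66. P4hb, a subunit of the prolyl hydroxylase of collagen, had 8.15 and 5.66 in hypertrophic arrays and 8.96 to 11.84 elsewhere, a difference of -3.41 (SE 0.73; adjusted p = 0.152, block 0.00722). Plod2, a lysyl hydroxylase of collagen, had 8.82 and 9.28 in hypertrophic arrays and 10.38 to 11.51 elsewhere, a difference of -2.07 (SE 0.47; adjusted p = 0.209). The export proteins Sar1a (-1.59; second probe set -0.92) and Sec24d (-1.08), the chaperone Hsp90b1 (-1.45) and Edem1 (-2.05), of the degradation pathway, also lay below all 6, but 2 further probe sets of Edem1 were at 0.21 and 0.60.

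**Figure D4:**
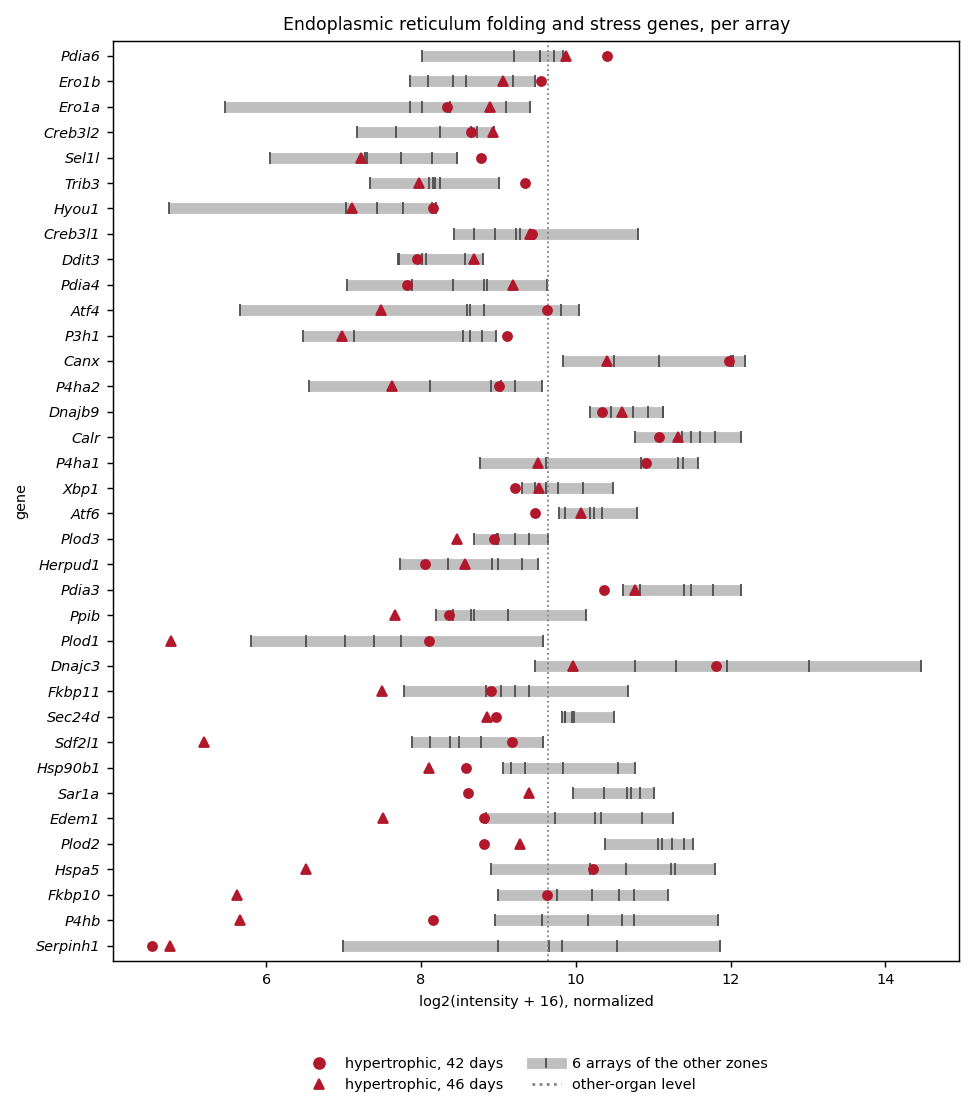
Normalized log2(intensity + 16) of the 36 measured genes of folding and stress in the endoplasmic reticulum, ordered by their difference, with red circles for the 42-day and red triangles for the 46-day hypertrophic array, grey bars with ticks for the 6 arrays of the other zones and a dotted line at the other-organ level of 9.64. Both red points lie left of the grey bar in 7 genes, among them Serpinh1, P4hb and Plod2, and right of it in Pdia6.

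Enzymes that build glycosaminoglycan chains lay on both sides. Of 23 measured, 5 (21.7%) lay below all 6 other arrays and 2 (8.70%) above, with a median difference of -0.20. Over all genes 4.54% lay below and 4.3% above, and over the 2515 brighter ones 6.44% and 3.82%. By limma 0 of the 23 passed, with or without the age block. At an unadjusted p under 0.05, 6 were lower, where 4.45% of all probe sets were. Csgalnact1, which starts chondroitin chains, had 11.03 and 9.73 in hypertrophic arrays and 11.22 to 13.42 elsewhere, a difference of -1.89 (SE 0.56; adjusted p = 0.464), while its second probe set gave -0.17. Chsy1, which extends them, differed by -1.34 and Ugdh, which makes their UDP-glucuronate, by -0.81. Chsy3, a relative of Chsy1, had 9.91 and 9.66 in hypertrophic arrays and 5.05 to 9.51 elsewhere, a difference of 2.09 (SE 1.04; adjusted p = 0.765), and the hyaluronan synthase Has2 differed by 0.70.

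Growth factor pathways held scattered members below the other zones, to be read against 4.54% of all genes below and 4.3% above, and by limma 0 genes passed in the Wnt, FGF, BMP and TGF-beta, hedgehog and growth hormone lists. Of 32 Wnt genes, 6 (18.8%) lay below and 3 (9.38%) above, the median difference was 0.01, and 6 were lower at an unadjusted p under 0.05. Over all probe sets 2.22% were higher and 4.45% lower at that p. Tcf7, a nuclear effector of Wnt signals, had 8.61 and 10.06 in hypertrophic arrays and 10.53 to 12.34 elsewhere, a difference of -2.11 (SE 0.51; adjusted p = 0.266). Ccn2, a matricellular growth factor often used as a hypertrophic marker, had 13.22 and 13.06 in hypertrophic arrays, against 15.58 and 16.02 in perichondral, 15.69 and 15.01 in reserve and 15.63 and 13.62 in proliferative arrays. Its difference was -2.12 (SE 0.65; adjusted p = 0.502).

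Of 39 genes of BMP and TGF-beta signalling, 5 (12.8%) lay below and 0 above, with 1 higher and 4 lower at an unadjusted p under 0.05. Such counts, here and for the FGF, hedgehog and growth hormone lists, stand beside 2.22% of all probe sets higher and 4.45% lower. Id2, an inhibitor of differentiation induced by BMPs, had 9.39 and 7.84 in hypertrophic arrays and 9.53 to 12.99 elsewhere, a difference of -2.80 (SE 0.68; adjusted p = 0.288, block 0.0108). The ligand Tgfb2 (-1.57), the latency protein Ltbp1 (-1.37) and the ligand Bmp2 (-1.26) lay below all 6 as well. Second probe sets of Id2 (0.54) and Tgfb2 (0.40) had the opposite sign. Of 15 FGF genes 3 (20%) lay below, and 1 was lower at an unadjusted p under 0.05. Among them was Fgfr2 (-1.81), whose 4 other probe sets ranged from -2.34 to 1.15. Fgfr3, the receptor that restrains growth plate chondrocytes, had 12.96 and 13.39 in hypertrophic arrays and 12.39 to 13.59 elsewhere, a difference of 0.37 (SE 0.47; adjusted p = 0.898), and a second probe set gave -0.67. Of 10 hedgehog and PTHrP genes and of 18 growth hormone and IGF genes, 0 lay outside the range of the other arrays, and 1 in each list had an unadjusted p under 0.05.

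By limma 0 genes passed in the lists of glycolysis and hypoxia, ribosomal proteins and cell division. Over all genes 4.54% lay below all 6 other arrays and 4.3% above, and over the 2515 brighter ones 6.44% and 3.82%. Of 24 genes of glycolysis and the hypoxia response, 4 (16.7%) lay below all 6 other arrays and 0 above. They included the glucose transporter Slc2a1 (9.06 and 9.57 in hypertrophic arrays and 10.03 to 10.78 elsewhere, a difference of -1.07) and the enzyme Pgam1 (-1.21). Of 26 cytosolic ribosomal protein genes 3 (11.5%) lay below, with a median difference of -0.40, among them Rps13 (-1.37) and Rpl18 (-0.63). Of the 26 ribosomal protein genes, 23 belonged to the brighter ones. Slc2a1, Pgam1, Rps13 and Rpl18 did not pass by limma (adjusted p from 0.596 to 0.812). At an unadjusted p under 0.05, 3 glycolysis genes, 4 ribosomal protein genes and 2 cell division genes were lower, where 4.45% of all probe sets were. Of 32 cell division genes, 2 (6.25%) lay below, the replication helicase subunits Mcm2 (-2.99) and Mcm5 (-2.39), both dim, and 0 above. Mki67, a protein of dividing cells, had 14.02 and 12.84 in hypertrophic arrays and 12.22 to 13.94 elsewhere, a difference of 0.53 (SE 0.51; adjusted p = 0.861).

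**Figure D5:**
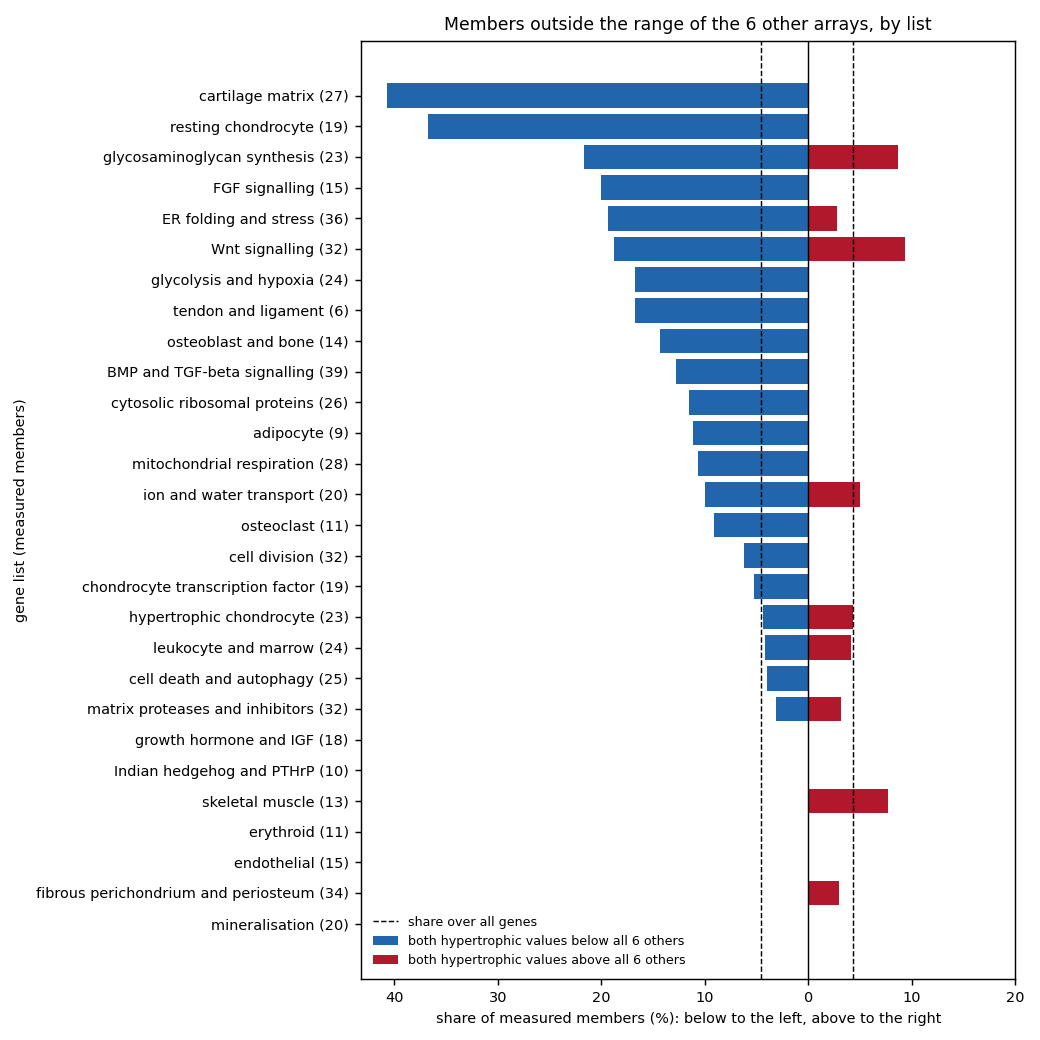
Share of the measured members (in percent, with their number in brackets) of 28 gene lists whose hypertrophic values lay below all 6 other arrays, drawn to the left, or above all 6, drawn to the right, with dashed lines at the shares over all 14217 genes (4.54% below and 4.3% above). The cartilage matrix list reaches 40.7% and the resting chondrocyte list 36.8% on the left, and the mineralisation list has no bar.

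On the higher side, the genes with the widest gaps beyond Col10a1 belonged to no maturation list used here, and none passed the threshold. Cdk13, a kinase of transcription, had 11.23 and 10.61 in hypertrophic arrays and 7.04 to 9.33 elsewhere, a difference of 2.32 (SE 0.64; adjusted p = 0.401). Its 2 other probe sets were also higher, by 1.02 and 1.36. Chst4, a sulfotransferase of N-acetylglucosamine, had 11.58 and 11.65 in hypertrophic arrays and 8.60 to 10.62 elsewhere, a difference of 1.80 (SE 0.47; adjusted p = 0.327).

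The calcium pump Atp2b2 had 10.46 and 10.52 in hypertrophic arrays and 7.90 to 9.42 elsewhere, a difference of 1.61 (adjusted p = 0.594). Nfkb1, a subunit of the transcription factor NF-kappaB, had 11.07 and 10 in hypertrophic arrays and 7.77 to 9.20 elsewhere, a difference of 1.85 (adjusted p = 0.549). The receptor kinase Epha5 (2.61), the mitochondrial creatine kinase Ckmt1 (1.73), Adam2 (2.45), Tsga10 (2.02), Lao1 (1.47), Ccdc3 (1.74) and the xylosyltransferase Gxylt1 (1.63) complete the 12 widest gaps. All 6 other-zone values of Cdk13, Atp2b2, Nfkb1, Epha5, Ckmt1, Adam2 and Gxylt1 lay below the other-organ level. With their other-zone means raised to that level, the rise of these genes was at least 1.16-fold (Adam2) to 2.42-fold (Cdk13). Second probe sets of Ccdc3 (-0.27) and Gxylt1 (-0.59) had the opposite sign. The yardstick genes of other organs were themselves higher in hypertrophic arrays by sign in 25 of 37 cases, with a median difference of 0.49, a shift whose part in these differences was not tested.

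Markers of bone, marrow and fibrous tissue were brighter in the 42-day than in the 46-day hypertrophic array. The summed deposited intensity of 14 osteoblast and bone genes was 300982 in the 42-day and 17479 in the 46-day hypertrophic array, against 15911 to 281313 in the other 6. For 24 leukocyte and marrow genes it was 27602 and 5651 in hypertrophic arrays, against 49625 to 55770 in reserve arrays and 4452 to 6058 in perichondral and proliferative arrays. For 11 osteoclast genes the sums were 9106 and 6519 in hypertrophic arrays and 1491 to 26471 elsewhere, and for 34 fibrous genes 276972 and 26145 in hypertrophic arrays and 23884 to 219225 elsewhere. Col1a1, the collagen of bone and fibrous tissue, followed this split with 16.09 and 11.33 in hypertrophic arrays and 9.24 to 15.80 elsewhere. The bone and fibrous lists share Col1a1 and Col1a2. The 42-day hypertrophic array thus held more of these signals than the 46-day one, and their part in the differences above was not tested. The split was not particular to these tissues. In hypertrophic arrays sums were also 449805 and 92578 for cartilage matrix genes and 303413 and 62424 for hypertrophic chondrocyte genes. Nor was a fall from 42 to 46 days particular to the hypertrophic zone. Bone sums were 225076 and 93623 in perichondral, 281313 and 174657 in reserve and 36435 and 15911 in proliferative arrays. Fibrous and cartilage matrix sums also fell in each of these zones, while leukocyte and osteoclast sums rose in proliferative arrays. The sums of the endothelial, hedgehog, growth hormone, mitochondrial respiration and yardstick lists were higher in the 46-day hypertrophic array.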

How the data were processed

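The authors deposited a linear intensity for each of 31099 probe sets on each array. Of tools, the submitters' processing notes list MAS5, GCOS and RMA with no version or role, and no genome build is given in the sources used here. The arrays share 1 scale, with mean deposited intensities from 500.08 to 500.16 after trimming.

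After leaving out 57 control probe sets, log2(intensity + 16) was quantile normalized, since array medians ranged from 7.92 to 8.51, a gap above 0.1. The normalized median was 8.25, and every difference is relative to it and understated for dim genes. Symbols came from the platform annotation, and 20764 were updated through gene identifiers. Of 31042 probe sets, 20826 carried 1 symbol, 436 several and 9780 none. Each of the 14217 genes used its probe set of highest mean.

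Zone means were estimated from all 8 arrays together with limma 3.58.1 in R 4.3.3 (4 residual and 12.58 prior degrees of freedom, variance trend), and p was adjusted by Benjamini-Hochberg over 31042 probe sets with a threshold of 0.05. The test was checked on simulated data. The main fit held zone means only. The labels give every zone the same ages, so age served as a replicate block in an alternative fit with 3 residual degrees of freedom. The change between ages correlated between zones with r from 0.0225 to 0.0806 across all probe sets, and from 0.0581 to 0.31 across the brightest. Alternatives were the deposited scale, median centring, offsets of 4 and 64, dim probe sets left out, each array left out, no variance trend, 2 groups without zone means and single other zones.

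By rule, the text named the 12 genes with the widest gap in each direction whose higher mean exceeded the other-organ level, up to 4 such members per list, and 28 growth plate genes, of which 24 had a probe set of their own. A gene called through a dimmer probe set (Reep5) was given by that one. Prelp, Lum, Mgp, Ogn, Matn2, Has2, Pdia6, Sar1a, Sec24d, Hsp90b1, Mcm2, Mcm5, Bhlhe41, Cox4i1 and Sdhd, and the genes so marked in the text, were named outside it, after their values were seen. Members and lists were chosen with earlier results of these data known.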

Additional observations from a re-analysis of the deposited data

How the results depend on the processing

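Each zone has 2 arrays, and their number and the dimness of many probe sets limit what could be found. The count of probe sets past the threshold moved with most settings. The higher count (1) was 0 on the deposited scale, with median centring, with dim probe sets left out, with no variance trend, with 2 groups and against perichondral arrays alone, 3 against proliferative arrays alone and without both 46-day hypertrophic and proliferative arrays, and 5 with age as replicate block. The lower count (11) was 5 with median centring and with dim probe sets left out, 6 with an offset of 64 and against reserve arrays alone, 1 against proliferative arrays alone, 0 with no variance trend and 68 with the block. With 1 array left out the higher count ran from 0 to 4 and the lower from 4 to 117, and was 117 without the 42-day and 27 without the 46-day hypertrophic array. It was 18 without the 46-day and 7 without the 42-day proliferative array, 4 without the 42-day and 5 without the 46-day perichondral array, and 4 without the 42-day reserve array. The counts of probe sets above all others (1450) and below (1221) ran from 1699 to 5692 and from 1493 to 4839 with 1 array left out, since fewer values then have to be cleared, and were 6324 and 5818 without both 46-day arrays. Of the 12 calls, 8 remained on the deposited scale, 5 with median centring and 12 with the block.

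Of 72 named genes, 59 kept their direction in every setting, and the 13 that did not were never past the threshold on the turned side. Against reserve arrays alone, differences were -0.33 for Mmp13, -0.56 for Mmp9, -0.36 for Ibsp, -1.10 for Dmp1, -0.51 for Spp1 and -2.02 for Col1a1. Against perichondral arrays alone, they were 0.33 for Phospho1 and -0.51 for Col1a1, and against proliferative arrays alone -0.24 for Pth1r and -0.36 for Panx3. Median centring gave 0.00 for Spp1 and -0.02 for Fgfr3. Without both 46-day arrays Phospho1 was at 0.18 and Vegfa at 0.43. With 1 array left out the ranges were -0.41 to 0.49 for Spp1, -0.22 to 0.37 for Pth1r, -0.17 to 1.44 for Mef2c, -1.55 to 0.53 for Vegfa, -0.14 to 3.46 for Dmp1, -0.12 to 1.37 for Panx3, -0.05 to 1.12 for Mki67 and -1.88 to 2.88 for Col1a1. The causes were not tested. The list medians kept their sign in every setting for 10 of 29 lists, among them the cartilage matrix (-2.17 to -0.93), resting chondrocyte (-1.46 to -0.77) and folding lists (-0.91 to -0.23).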

Other observations

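With age as a replicate block, 68 probe sets were lower in hypertrophic arrays (0.219% of all). The following 6 of their genes were picked after their values were seen and stand for no group, and none passed without the block. C1qtnf3, a secreted protein of cartilage, had 6.52 and 8.37 in hypertrophic arrays, against 13.69 and 13.19 in perichondral, 11.68 and 10.85 in reserve and 15.80 and 9.66 in proliferative arrays. Its difference was -5.03 (SE 0.87; adjusted p = 0.0135 with the block and 0.12 without, by limma). Ckap4, a membrane protein of the endoplasmic reticulum, had 9.50 and 10.11 in hypertrophic arrays and 11.80 to 13.75 elsewhere (-2.69; block 0.011), while its 2 dimmer probe sets gave -0.27 and -0.23. Tmed7, of vesicle transport (-3.41; block 0.00966; 2 dim probe sets at 0.12 and 0.84), Tusc3, of N-glycosylation (-2.75; block 0.0155), and Uggt2, which checks the folding of glycoproteins (-3.11; block 0.0181), also lay below all 6 other arrays. So did Prickle1, of planar cell polarity (-2.82; block 0.00404; second probe set -0.95).

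Several other lists held few genes outside the range of the other arrays, to be read against 4.54% of all genes below and 4.3% above. Of 19 chondrocyte transcription factors 1 (5.26%) lay below, Bhlhe41 (-2.01), and 0 above. Of 28 mitochondrial respiration genes 3 (10.7%) lay below, Nnt, Cox4i1 (-2.32) and Sdhd (-1.59), whose second probe set gave 1.37. Of 20 ion and water transport genes 1 (5%) lay above and 2 (10%) below, but second probe sets of Lrrc8a (-0.66 and -0.73) and Atp2b1 (0.50 and 0.27) opposed the first. Of 15 endothelial and 11 erythroid genes 0 lay outside that range.

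The naming rule has a sharp edge. Poc1b lay above all 6 other arrays by 0.00157 and Foxk2 below them by 0.00127, while Nfia missed the range by 0.00196 in the lower direction.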
